A study of Mus musculus with 6 samples.

Results

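Somatostatin interneurons were chosen from 6 single-cell RNA libraries of mouse hippocampal tissue by the UMI counts of a few genes. A UMI is 1 counted RNA molecule. Barcodes with fewer than 500 genes or 1000 UMIs, or with more than 15% of UMIs from mitochondrial genes, were dropped. A kept barcode was called a GABA cell with at least 2 UMIs of Gad1 and Gad2, the enzymes that make GABA. A GABA cell was called an SST cell when its sum over Sst, Elfn1, Crhbp and Pappa was at least 4 UMIs and strictly above its sums over a PV panel (Pvalb, Btbd11, Tac1, Tll1) and a CGE panel (Vip, Htr3a, Npas1, Adarb2). The rule found 548 SST cells among 3505 GABA cells and 44736 kept cells, beside 517 PV cells and 1618 CGE cells. These 14 genes chose the cells, so their levels are a description and carry no test.

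The mice were 6 months old. Animals labelled 5×FAD received PBS or Aβ3FTnAu, a protein-gold nanostructure directed at amyloid-β, and wild-type littermates received PBS. The groups are named WT-PBS, 5×FAD-PBS and 5×FAD-Aβ3FTnAu, with 2 samples each, and a value pair is given in the order of replicates 1 and 2. In the 5×FAD line, transgenes carrying familial Alzheimer mutations are driven by the neuronal Thy1 promoter, and no wild-type mice given Aβ3FTnAu are among the samples. The labels do not name separate animals for the 2 samples of a group, so p-values measure only the spread between these samples, which may be technical.

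Somatostatin interneurons arise from the medial ganglionic eminence under Lhx6, Sox6 and Satb1. In the hippocampus many of them lie in stratum oriens or the dentate hilus and send axons to the distal dendrites of principal cells, where they release GABA and, with strong activity, peptides from dense-core vesicles. Somatostatin acts on inhibitory receptors of neurons, and loss of its level in brain tissue is a long-known feature of Alzheimer's disease.

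The promoter of Sst is shown because the gene defines these cells and its transcript level differed between the groups. The sequence holds the 250 bases before the RefSeq start, on the minus strand at chr16:23890845-23891094 of GRCm38.p6. Capitals mark the only match on either strand to the cAMP response element TGACGTCA, a palindrome that is the textbook site of CREB in this gene, at 48 to 41 bases before the start. The same letters occur in 508 of 32851 promoter windows of that length (1.55%), and no factor binding was measured in these samples.
Sst promoter: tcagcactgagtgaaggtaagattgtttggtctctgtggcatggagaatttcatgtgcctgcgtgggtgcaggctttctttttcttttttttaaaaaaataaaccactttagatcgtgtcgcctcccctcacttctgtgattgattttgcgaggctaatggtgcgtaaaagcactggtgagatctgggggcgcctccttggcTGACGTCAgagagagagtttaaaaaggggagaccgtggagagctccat

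WT-PBS held 190 and 76 SST cells, 5×FAD-PBS 27 and 65, and 5×FAD-Aβ3FTnAu 95 and 95. Summed over its SST cells, a sample held 299392 to 1182179 UMIs, and the median SST cell held 5436.5 to 9432 UMIs. Barcodes also seen in another library made up 3 of the SST cells. SST cells with no mitochondrial UMI were 48.4% and 14.5% of those in WT-PBS, 11.1% and 4.62% in 5×FAD-PBS, and 48.4% and 53.7% in 5×FAD-Aβ3FTnAu. The capture of whole cells as opposed to nuclei was not tested. Just inside the rule, 81 cells had a panel sum of 4 with a mean of 1.85 Sst UMIs, and just outside it 92 GABA cells had a sum of 3 with a mean of 1.41. Cells with a sum of 3 numbered 20 and 8 in WT-PBS, 6 and 5 in 5×FAD-PBS, and 30 and 23 in 5×FAD-Aβ3FTnAu. Those with a sum of 4 numbered 25 and 6, 3 and 5, and 22 and 20.

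Markers that the rule did not use were present in the SST cells. After each cell was thinned to 3000 UMIs, leaving out 22 and 8, 0 and 2, and 2 and 4 shallower cells of the groups in the order above, Lypd6b, a marker given for these cells, had a UMI in 25% to 40.7% of SST cells per sample. The share without thinning was 41.6% to 71.6%. In 400 excitatory cells drawn per sample, which should lack the gene, the thinned share was 0.25% to 2.0%. Lhx6 had a UMI in 8.60% to 19.0% of thinned SST cells and in 0 of 400 excitatory cells of each sample, which allows a share of up to 0.75%. The median depth was 5436.5 to 9432 UMIs in SST cells and 6801.5 to 8231 in the excitatory cells before thinning. Pvalb, the calcium buffer of PV cells, had a UMI in 1.08% to 3.70% of thinned SST cells.

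SST cells stood apart from PV cells, the other medial ganglionic eminence class, in receptors, peptides and channels. Both classes are defined by the rule, so the comparison within the same 6 samples describes them: of 8054 genes outside the rule, 885 were higher and 918 lower in SST cells at an adjusted p under 0.05 in edgeR (22.4% in either direction), and nothing is read from that count. Reln, the extracellular glycoprotein reelin, had a mean of 755 ± 145 CPM (SD, n = 6) in SST cells and 38.8 ± 19.7 CPM in PV cells, where CPM is a gene's UMI count scaled to one common total per sample and class. Grin3a, an NMDA receptor subunit of low calcium permeability, was at 554 ± 73.9 against 68.6 ± 16.1 CPM. Both genes were higher in SST cells in 6 of 6 samples.

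Among peptide genes, Npy, neuropeptide Y, was at 304 ± 150 CPM (SD, n = 6) in SST cells and 45.6 ± 20.8 CPM in PV cells. The list counts that follow stand beside 11% higher and 11.4% lower over all genes outside the rule. Of 17 tested genes for peptide precursors and their processing, 8 were higher in SST cells, among them Pcsk1, Pcsk2, Scg2 and Vgf, and 0 were lower. Of 26 glutamate receptor genes, 16 were higher and 2 lower, while of 30 potassium channel genes 10 were higher and 15 lower. Kcnc1, the Kv3.1 channel of fast-spiking cells, was at 116 ± 21.7 against 305 ± 21.8 CPM. Erbb4, the neuregulin receptor, was at 1394 ± 563 against 11671 ± 1765 CPM, and Syt2, a fast release sensor, at 8.70 ± 4.93 against 92.7 ± 13.5 CPM. Of 11 tested lineage transcription factors and partners, Maf and Satb1 were higher and Sox6 and Erbb4 lower in SST cells. Lhx6 was at 46.1 ± 16.3 against 38.6 ± 9.37 CPM and Nxph1, a neurexin ligand, at 2649 ± 302 against 2870 ± 523 CPM.

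Against CGE cells, which come from the caudal ganglionic eminence, 1509 of 10580 genes were higher and 1663 lower in SST cells (30% in either direction), again as a description. Over all genes outside the rule, 14.3% were higher and 15.7% lower. Of 12 tested lineage transcription factors and partners, 7 were higher in SST cells, while Erbb4 and St18 were lower. Of 15 tested SST markers outside the rule, 10 were higher and 3 lower, namely Kit, Nos1 and Ptprk. Of 11 tested CGE markers outside the rule, 9 were lower and Reln was higher. Erbb4 was at 1394 ± 563 CPM in SST cells and 3940 ± 961 CPM in CGE cells. Sox6 was at 362 ± 90.5 CPM (SD, n = 6) in SST cells and 28.4 ± 14.8 CPM in CGE cells, Satb1 at 274 ± 34.6 against 43.7 ± 9.19 CPM, and Lhx6 at 46.1 ± 16.3 against 7.14 ± 1.13 CPM. Lypd6b, which modulates nicotinic receptors, was at 198 ± 42.7 against 10.4 ± 3.53 CPM. Prox1, a transcription factor of CGE cells, was at 8.73 ± 6.57 against 113 ± 20.0 CPM, and Cnr1, the cannabinoid receptor CB1, at 46.8 ± 13.3 against 323 ± 106 CPM.

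**Figure D1:**
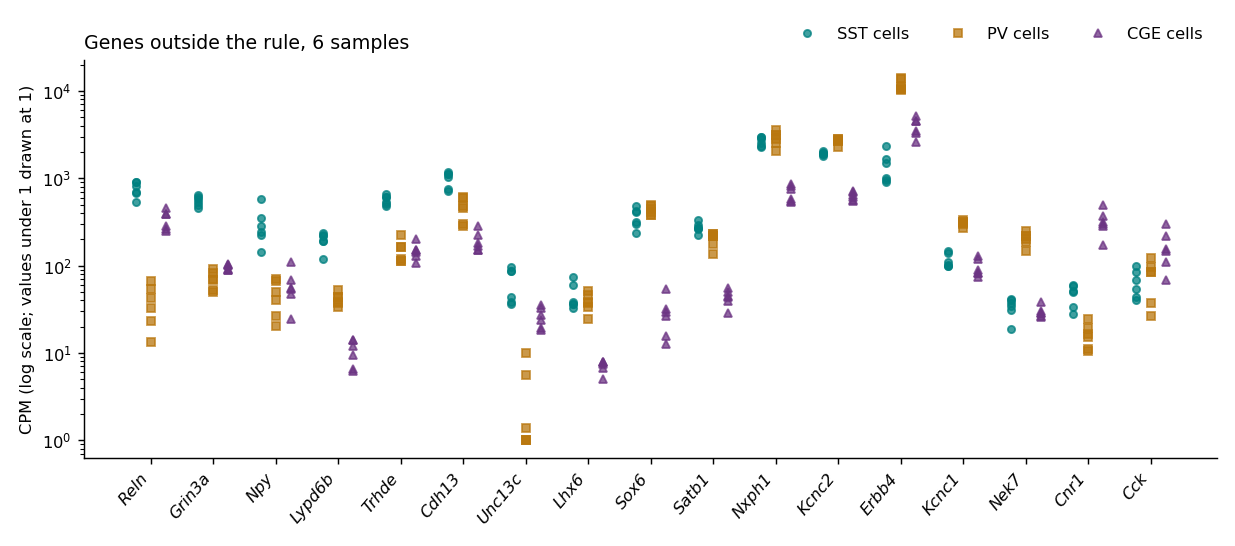
Level of 17 genes outside the rule in SST (circles), PV (squares) and CGE cells (triangles); each point is 1 of 6 samples, in CPM on a log axis. Reln, Grin3a, Npy and Lypd6b lie higher in SST than in PV cells in 6 of 6 samples, Erbb4 and Kcnc1 lower, and Lhx6 overlaps between SST and PV cells.

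SST cells varied among themselves in genes that mark their known subtypes. After thinning to 3000 UMIs, Npy had a UMI in 44.0% and 35.3% of SST cells in WT-PBS, 29.6% and 49.2% in 5×FAD-PBS, and 36.6% and 27.5% in 5×FAD-Aβ3FTnAu. The thinned share in excitatory cells was 1.25% to 4.50%, and the unthinned share in SST cells 41.1% to 57.9%. The groups overlapped in this share.
Reln had a UMI in 57.1% and 66.2%, 51.9% and 68.3%, and 75.3% and 71.4% of thinned SST cells, against 1.75% to 3.0% of excitatory cells. The highest Reln shares were those of both 5×FAD-Aβ3FTnAu samples, with exact 95% intervals of 65.2% to 83.6% and 61.0% to 80.4%, which overlap those of both 5×FAD-PBS samples.
Cort, the peptide cortistatin of a subset of these cells, had a UMI in 14.3% and 16.2% of thinned SST cells in WT-PBS, 0% and 14.3% in 5×FAD-PBS, and 0% and 5.49% in 5×FAD-Aβ3FTnAu. The samples at 0 held 27 and 93 thinned cells, which allows shares of up to 11.1% and 3.23%. Chodl, which with Nos1 marks the rare long-range type, had a UMI in thinned SST cells of 1 sample only, the second of 5×FAD-PBS, at 3.17%. Calb1 lay at 11.8% to 19.4%, near the 9.0% to 11.8% of excitatory cells, which express it themselves. These intervals cover counting error only.

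The share of SST cells among all kept cells was lowest in 5×FAD-PBS. It was 1.39% and 1.34% in WT-PBS, 0.560% and 0.829% in 5×FAD-PBS, and 1.37% and 1.63% in 5×FAD-Aβ3FTnAu, with group means of 1.37% ± 0.0365, 0.694% ± 0.190 and 1.5% ± 0.187 (SD, n = 2). Neither 5×FAD-PBS sample overlapped either other group. A test of 2 samples against 2 cannot go below a two-sided exact permutation p of 0.33, so edgeR's quasi-likelihood test was fitted over cell classes. The share fell in 5×FAD-PBS against WT-PBS (log2 −0.92 ± 0.18 SE, adjusted p = 0.0100) and rose in 5×FAD-Aβ3FTnAu against 5×FAD-PBS (log2 1.03 ± 0.19, adjusted p = 0.0100). The difference between 5×FAD-Aβ3FTnAu and WT-PBS was 0.11 ± 0.15 (adjusted p = 0.533). These shares count cells that passed the rule, which Sst enters, so a lower Sst level per cell would also lower them.

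Other GABA classes also differed in share, not always in the same comparisons as SST cells. GABA cells made up 7.12% ± 0.190, 5.14% ± 0.124 and 11.5% ± 0.254 of kept cells in the 3 groups (SD, n = 2). CGE cells fell by 0.41 on the log2 scale in 5×FAD-PBS against WT-PBS and rose by 1.07 in 5×FAD-Aβ3FTnAu against 5×FAD-PBS (adjusted p = 0.0100 and 0.00132 in edgeR). PV cells gave −0.04 in the first of these comparisons (adjusted p = 0.876) and rose by 0.96 in the second (adjusted p = 0.0197). Against WT-PBS, 5×FAD-Aβ3FTnAu had higher shares of PV cells (0.92, adjusted p = 0.0171) and CGE cells (0.66, adjusted p = 0.00149), where SST cells gave the 0.11 above. The first SST call was lost without the WT-PBS 1 library (log2 −0.88, adjusted p = 0.0829), and both calls were lost with a panel sum of at least 8 (−0.63, adjusted p = 0.0684, and 0.0495, adjusted p = 0.864) or with cells thinned to 3000 UMIs before the rule (−0.98, adjusted p = 0.0878, and 0.29, adjusted p = 0.545).

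Among GABA cells, the share of SST cells was 19.2% and 19.2% in WT-PBS, 10.7% and 16.4% in 5×FAD-PBS, and 12% and 13.9% in 5×FAD-Aβ3FTnAu. Both groups of 5×FAD mice lay below WT-PBS and overlapped each other. Here too the Sst level of a cell enters the rule. Fewer SST cells and less Sst RNA per cell cannot be told apart in this share. None of the 3 differences passed edgeR's test under the rule as given: they were −0.45 ± 0.23 on the log2 scale (adjusted p = 0.310) for 5×FAD-PBS against WT-PBS, −0.12 ± 0.24 (adjusted p = 0.682) for 5×FAD-Aβ3FTnAu against 5×FAD-PBS, and −0.57 ± 0.20 (adjusted p = 0.173) for 5×FAD-Aβ3FTnAu against WT-PBS. With a panel sum of at least 8 the share in 5×FAD-Aβ3FTnAu passed as lower than in 5×FAD-PBS (−1.12, adjusted p = 0.0340) and than in WT-PBS (−1.26, adjusted p = 0.00557). With cells thinned to 3000 UMIs before the rule the difference from WT-PBS also passed (−1.48, adjusted p = 0.00253), and that from 5×FAD-PBS was −1.06 (adjusted p = 0.0722). At the panel sum of 8, 41 and 32 SST cells were left in 5×FAD-Aβ3FTnAu, where Sst itself was low, and 114 and 51 in WT-PBS.

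**Figure D2:**
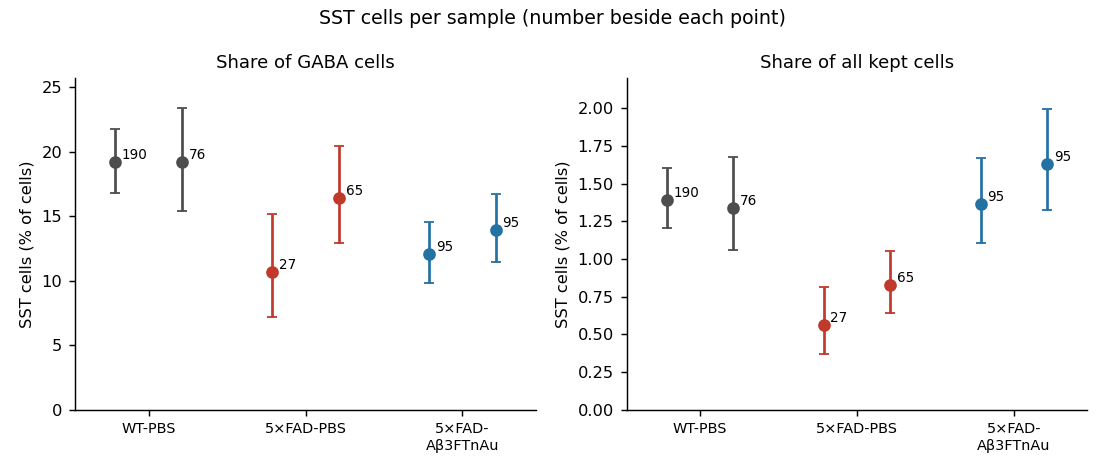
SST cells as a percentage of GABA cells (left) and of all kept cells (right); each point is 1 sample with its number of SST cells, and bars are exact (Clopper-Pearson) 95% intervals for counting error. On the right both 5×FAD-PBS points, 0.560% and 0.829%, lie below the other 4 samples; on the left both WT-PBS points sit at 19.2%, above the other 4.

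Sst was lowest in the SST cells of mice given Aβ3FTnAu. It was at 1443 and 1450 CPM in WT-PBS, 1463 and 2249 CPM in 5×FAD-PBS, and 599 and 496 CPM in 5×FAD-Aβ3FTnAu. The median SST cell held 7 and 8, 8 and 11, and 3 and 4 Sst UMIs in the same order. Both treated samples lay below all others. SST cells with no Sst UMI, chosen through the other 3 panel genes, were 3.16% and 3.95%, 3.70% and 4.62%, and 11.6% and 13.7% of the SST cells. The other panel genes did not share this order, and Elfn1 and Pappa were higher in both treated samples than in both WT-PBS samples. Under the rule, a cell with fewer than 4 Sst UMIs passes only with UMIs of the other panel genes. The choice of cells thus ties their levels to that of Sst, and the contrast is a description only. Elfn1, a synaptic adhesion protein of these cells, was at 113 and 133, 117 and 202, and 177 and 160 CPM. Pappa, a metalloprotease that cleaves binding proteins of insulin-like growth factors, was at 78.7 and 142, 207 and 157, and 256 and 170 CPM. Crhbp, which binds corticotropin-releasing hormone, was at 162 and 60.4, 73.5 and 200, and 64.3 and 78.6 CPM.

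Because Sst helped to choose these cells, its level was also taken in cells that passed the same rule with Sst left out of the panel, a choice made after seeing the data. This gate held 37 and 20 cells in WT-PBS, 13 and 31 in 5×FAD-PBS, and 43 and 33 in 5×FAD-Aβ3FTnAu. Sst was at 1063 and 665 CPM, 1490 and 1808 CPM, and 378 and 295 CPM there. The 3 groups did not overlap. Under the main rule, 33.2% to 49.2% of all genes tested did not overlap between any 2 groups compared. In edgeR's quasi-likelihood test over 5442 genes, Sst fell in 5×FAD-Aβ3FTnAu against 5×FAD-PBS (log2 −2.31 ± 0.25, adjusted p = 6.94e-05) and against WT-PBS (log2 −1.36 ± 0.25, adjusted p = 0.0122). In 5×FAD-PBS against WT-PBS the difference was 0.94 ± 0.24 (adjusted p = 0.228). The call against WT-PBS was lost without the second 5×FAD-Aβ3FTnAu library (−1.17, adjusted p = 0.206), and 5×FAD-PBS passed as higher without the first WT-PBS library (1.24, adjusted p = 5.08e-04).

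Over all GABA cells, with no panel, Sst was at 257 and 312 CPM in WT-PBS, 200 and 389 CPM in 5×FAD-PBS, and 99.2 and 63.9 CPM in 5×FAD-Aβ3FTnAu. It was lower in 5×FAD-Aβ3FTnAu than in WT-PBS (log2 −1.81 ± 0.32, adjusted p = 0.0436 in edgeR), and the difference from 5×FAD-PBS did not pass (−1.85 ± 0.32, adjusted p = 0.137). In a sum over GABA cells, fewer SST cells and less Sst RNA per cell cannot be told apart. In excitatory cells, where Sst UMIs are background, Sst was at 17.89 and 24.74 CPM in WT-PBS and 10.96 and 17.46 CPM in 5×FAD-PBS. It was at 10.61 and 7.45 CPM in 5×FAD-Aβ3FTnAu, so both treated samples were lowest in background too. The group difference in background was not tested.

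**Figure D3:**
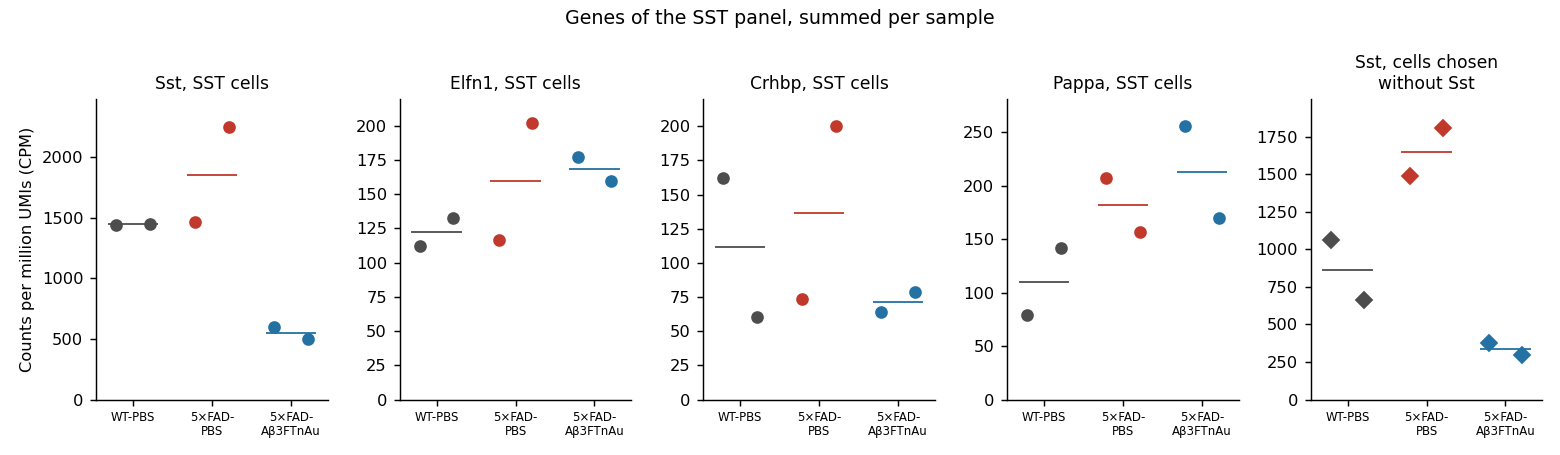
CPM of the 4 SST panel genes in SST cells (circles) and of Sst in cells chosen without Sst (diamonds); each point is 1 sample and each line a group mean. Sst is lowest in both 5×FAD-Aβ3FTnAu samples under either choice of cells, at 599 and 496 CPM and at 378 and 295 CPM, while Elfn1 and Pappa are higher there than in WT-PBS and Crhbp overlaps between all groups. In the circles all 4 genes enter the rule as a sum, so the choice of cells ties their levels together.

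In 5×FAD-PBS against WT-PBS, 3 of 8714 genes outside the rule passed in SST cells, 1 higher and 2 lower (0.0344% of genes tested, 0.0115% higher and 0.023% lower), by edgeR's quasi-likelihood test at an adjusted p under 0.05. Hs3st4, an enzyme that adds sulfate to heparan sulfate chains (chr7:123982869-124398989 of GRCm38, as all gene positions here), was at 145 and 148 CPM in WT-PBS, 33.4 and 34.4 CPM in 5×FAD-PBS, and 48.2 and 47.7 CPM in 5×FAD-Aβ3FTnAu. Both 5×FAD groups lay well below WT-PBS. Hs3st4 fell in 5×FAD-PBS (log2 −2.09 ± 0.29, adjusted p = 0.0108) and was also lower in 5×FAD-Aβ3FTnAu than in WT-PBS (−1.59 ± 0.24, adjusted p = 0.00654). Tafa1, a secreted protein of the TAFA family (chr6:96113154-96657198), was at 321 and 359, 120 and 77.5, and 124 and 180 CPM in the same order. Tafa1 fell in 5×FAD-PBS (log2 −1.80 ± 0.26, adjusted p = 0.0126), and the treated samples again lay with 5×FAD-PBS, below WT-PBS. Tmem132c, a membrane protein gene (chr5:127241808-127565793) listed among PV cell markers, was at 44.0 and 43.2, 170 and 127, and 58.5 and 94.1 CPM. It rose in 5×FAD-PBS (log2 1.77 ± 0.29, adjusted p = 0.0394), with no overlap between these groups.

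Genes of wider interest stayed short of the threshold in that comparison. Arpp21, a phosphoprotein of forebrain neurons, was at 167 and 261 CPM in WT-PBS and 70.1 and 45.2 CPM in 5×FAD-PBS (log2 −1.90 ± 0.33, adjusted p = 0.0605 in edgeR). Thy1, whose promoter drives the transgenes, was at 71.1 and 36.3 CPM in WT-PBS and 110 and 146 CPM in 5×FAD-PBS (1.23 ± 0.30, adjusted p = 0.431). Mouse App was at 560 and 470 CPM against 718 and 667 CPM (0.45 ± 0.18, adjusted p = 0.732). Both Thy1 and App lay higher in each 5×FAD-PBS sample than in each WT-PBS sample. The samples of these groups did not overlap, in either direction, for 33.2% of all genes tested.

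All 9 tested mitochondrial transcripts lay higher in 5×FAD-PBS than in WT-PBS, with a median log2 difference of 1.65 beside −0.00 over all genes, and 0 passed. The mitochondrial genes summed to 215 and 661 CPM in WT-PBS, 1029 and 1438 CPM in 5×FAD-PBS, and 218 and 134 CPM in 5×FAD-Aβ3FTnAu. The excitatory marker list summed to 511 and 478 CPM in WT-PBS and 387 and 357 CPM in 5×FAD-PBS, and astrocyte markers to 402 and 281 against 157 and 118 CPM. Without the cells that held 2 or more Slc17a7 UMIs 0 genes passed in edgeR, and Hs3st4 was at −1.49 (adjusted p = 0.762), Tafa1 at −0.67 (adjusted p = 0.843) and Tmem132c at 1.71 (adjusted p = 0.209). Without high doublet scores 3 genes passed, of which Tafa1 alone was among the 3 above, and on cells with a mitochondrial UMI alone 4 passed, Hs3st4 and Tafa1 among them. Over the settings that left out no library, Hs3st4 passed in 8 of 13, Tafa1 in 8 and Tmem132c in 5. With Sst left out of the panel Tafa1 was at −2.92 (adjusted p = 0.655) and Tmem132c at 0.79 (adjusted p = 0.789), and Tmem132c was at 2.69 with equal cells per sample. In edgeR the count was 36 without WT-PBS 1, 487 without WT-PBS 2, 0 without either 5×FAD-PBS library and 5 without either 5×FAD-Aβ3FTnAu library, where a lone sample is assumed to vary like the other groups; 581 genes (6.67%) had an unadjusted p under 0.05.

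In 5×FAD-Aβ3FTnAu against 5×FAD-PBS, 9 of 8714 genes passed in SST cells, 1 higher and 8 lower (0.103% of genes tested, 0.0115% higher and 0.0918% lower). The falls took in genes of mitochondria, peptide processing, iron storage, ribosomes and chromatin. Pcsk1n, the proSAAS protein that inhibits prohormone convertase 1 (chrX:7919822-7924410), was at 201 and 116 CPM in WT-PBS, 130 and 155 CPM in 5×FAD-PBS, and 45.3 and 27.1 CPM in 5×FAD-Aβ3FTnAu. Both treated samples lay below the other 4, where 44.7% of all genes tested did not overlap between treated and 5×FAD-PBS samples. Pcsk1n fell by 2.0 ± 0.32 on the log2 scale against 5×FAD-PBS (adjusted p = 0.0327 in edgeR). Fth1, the ferritin heavy chain (chr19:9980598-9985098), was at 99.0 and 117, 73.5 and 99.0, and 24.9 and 27.1 CPM in the same order. It fell by 1.74 ± 0.31 (adjusted p = 0.0460), and the treated samples again lay below all others. H3f3b, a gene for histone H3.3, was at 93.5 and 108 CPM in 5×FAD-PBS and 38.0 and 29.6 CPM in 5×FAD-Aβ3FTnAu, a fall of 1.58 ± 0.30 (adjusted p = 0.0486). Over the settings that left out no library, Pcsk1n passed in 8 of 13, Fth1 in 6 and H3f3b in 1.

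The 2 mitochondrial transcripts among the falls were mt-Co2 and mt-Co1, subunits of cytochrome oxidase. mt-Co2 was at 32.1 and 74.2 CPM in WT-PBS, 150 and 204 CPM in 5×FAD-PBS, and 23.4 and 15.5 CPM in 5×FAD-Aβ3FTnAu. It fell by 3.21 ± 0.41 on the log2 scale (adjusted p = 0.00944 in edgeR), from a level in 5×FAD-PBS that lay above WT-PBS. mt-Co1 fell by 2.16 ± 0.36 (adjusted p = 0.0384). All 9 mitochondrial transcripts lay lower in 5×FAD-Aβ3FTnAu, with a median of −2.73 beside −0.01 over all genes. Rpl13, a ribosomal protein gene with 6 named pseudogenes that could share its reads, passed as lower (−2.23 ± 0.41, adjusted p = 0.0460), and all 35 tested ribosomal protein genes lay lower, with a median of −0.98. Over the settings that left out no library, mt-Co2 passed in 12 of 12, mt-Co1 in 8 of 12 and Rpl13 in 4 of 13. The other 2 genes that fell were Mrpl41, a mitochondrial ribosomal protein gene, and Shisa4, a membrane protein gene, both named after their values were seen.

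Gm15680, a noncoding transcript inside Cdh8 on the same strand (chr8:99397213-99506770), was at 166 and 276 CPM in WT-PBS, 281 and 260 CPM in 5×FAD-PBS, and 696 and 680 CPM in 5×FAD-Aβ3FTnAu. It rose against 5×FAD-PBS (log2 1.35 ± 0.24, adjusted p = 0.0460 in edgeR) with the treated samples above the other 4, and its reads cannot be told apart from those of Cdh8 introns here. Its call passed in 7 of the 13 settings that left out no library. The share of SST cells with no mitochondrial UMI moved with this comparison, at 11.1% and 4.62% in 5×FAD-PBS against 48.4% and 53.7%. Fitted on cells with a mitochondrial UMI alone, 7 genes passed, of which 2 were among the 9 above. Cells with none numbered 3 and 3 in 5×FAD-PBS, too few to compare. In edgeR the count was 419 without WT-PBS 1, 418 without WT-PBS 2, 0 without 5×FAD-PBS 1, 2 without 5×FAD-PBS 2, 4 without 5×FAD-Aβ3FTnAu 1 and 0 without 5×FAD-Aβ3FTnAu 2; mt-Co2 and Pcsk1n kept their calls without 5×FAD-Aβ3FTnAu 1, and no named gene did without either 5×FAD-PBS library or without 5×FAD-Aβ3FTnAu 2. In all, 885 genes (10.2%) had an unadjusted p under 0.05.

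In 5×FAD-Aβ3FTnAu against WT-PBS, 277 of 8714 genes passed in SST cells, 132 higher and 145 lower (3.18% of genes tested, 1.51% higher and 1.66% lower). This comparison shares its samples with both others. The higher genes were mostly noncoding, and the lower genes had short genomic spans. Of the 132 higher genes, 85 were long noncoding (64.4%), beside 9.6% of all genes tested. Of the 145 lower genes, 137 were protein coding (94.5%), near the 90.4% of all genes tested, and their median genomic span was 10.8 kb beside 38.7 kb over all genes tested. These counts describe the called genes and were not tested.

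Genes of the regulated secretory pathway lay lower, and those named here also fell in PV cells. In PV cells fitted alone, Pcsk1n was at −2.17, Scg2 at −1.64, Chgb at −1.21, Cck at −1.76 and Npy at −1.17 on the log2 scale. Their adjusted p there ran from 0.00647 to 0.0493 in edgeR. Of 17 tested genes for peptide precursors and their processing, 5 fell and 0 rose, and the list's median was −1.01 beside −0.03 over all genes. Over all genes tested, 1.66% fell. Pcsk1n fell by 2.14 ± 0.30 on the log2 scale (adjusted p = 0.00574 in edgeR). Scg2, secretogranin II, a granule protein and peptide precursor, was at 143 and 93.2 CPM in WT-PBS, 104 and 114 CPM in 5×FAD-PBS, and 48.2 and 41.2 CPM in 5×FAD-Aβ3FTnAu. Scg2 fell by 1.41 ± 0.26 (adjusted p = 0.0130). Chgb, chromogranin B, was at 162 and 116, 76.8 and 116, and 55.6 and 56.7 CPM, a fall of 1.30 ± 0.25 (adjusted p = 0.0163). Cck, the cholecystokinin precursor, fell by 1.13 ± 0.26 (adjusted p = 0.0293). In Scg2, Chgb and Cck the treated samples lay below the other 4, and 49.2% of all genes tested did not overlap between treated and WT-PBS samples. Npy was at 355 and 240, 284 and 575, and 227 and 142 CPM, and did not pass (−0.68 ± 0.33, adjusted p = 0.313).

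Slc32a1, the transporter that loads GABA into vesicles (chr2:158610767-158615748), was at 102 and 48.3 CPM in WT-PBS, 66.8 and 86.1 CPM in 5×FAD-PBS, and 26.3 and 20.6 CPM in 5×FAD-Aβ3FTnAu. It fell against WT-PBS (log2 −1.71 ± 0.35, adjusted p = 0.0198 in edgeR), was the only one of 8 tested genes of GABA synthesis and transport to pass, and missed the threshold against 5×FAD-PBS (−1.72 ± 0.38, adjusted p = 0.110). Atp6v0c, a subunit of the proton pump that acidifies vesicles and lysosomes, was at 711 and 306, 240 and 349, and 117 and 117 CPM. Atp6v0c fell by 2.10 ± 0.35 (adjusted p = 0.0227), with both treated samples at the same, lowest level. Of 18 GABA receptor genes 3 fell, Gabra2, Gabrb1 and Gabrg1, beside 1.66% of all genes tested, and the list's median was −0.40. Gabrb1 was at 579 and 627 CPM in WT-PBS and 345 and 374 CPM in 5×FAD-Aβ3FTnAu (−0.73 ± 0.19, adjusted p = 0.0411).

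Fth1 fell by 2.02 ± 0.29 on the log2 scale (adjusted p = 0.00574 in edgeR). Apoe, the lipid carrier that neurons can also make and astrocytes make in quantity, was at 112 and 70.8 CPM in WT-PBS, 56.8 and 121 CPM in 5×FAD-PBS, and 35.1 and 37.4 CPM in 5×FAD-Aβ3FTnAu. Apoe fell by 1.34 ± 0.32 (adjusted p = 0.0327). Of 3 tested astrocyte markers 2 fell, Slc1a2 and Slc4a4, and of 6 excitatory markers 1 fell, Neurod6. Summed astrocyte markers were at 402 and 281, 157 and 118, and 190 and 184 CPM, so the treated sums lay above those of 5×FAD-PBS. Of the 3 tested markers, however, 2 lay lower and 1 higher in 5×FAD-Aβ3FTnAu than in 5×FAD-PBS, with a median log2 difference of −0.48. Of 31 nuclear genes of oxidative phosphorylation 4 fell, Cox8a, Ndufa4, Ndufb9 and Ndufs1, and 28 lay lower. Of 35 ribosomal protein genes 1 fell and 34 lay lower, with a median of −1.08. Over all genes tested 1.66% fell, and nothing is read from 1 call in a list of this size.

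Single genes of other kinds rose. Gria1, the GluA1 AMPA receptor subunit (chr11:57011387-57330244), was at 2997 and 3383 CPM in WT-PBS, 4215 and 3863 CPM in 5×FAD-PBS, and 5949 and 4466 CPM in 5×FAD-Aβ3FTnAu. Gria1 rose by 0.72 ± 0.18 on the log2 scale (adjusted p = 0.0419 in edgeR) and was the only one of 27 glutamate receptor genes to pass. Kcnq3, an M-current potassium channel, was at 492 and 556, 678 and 570, and 947 and 923 CPM, and rose by 0.85 ± 0.19 (adjusted p = 0.0236), the only one of 30 potassium channel genes. Over all genes tested 1.51% rose, and nothing is read about these 2 lists from 1 call in each. Unc13c, a vesicle-priming protein, rose by 1.32 ± 0.29 (adjusted p = 0.0243). Gss, glutathione synthetase, was at 15.2 and 36.3, 33.4 and 45.2, and 95.0 and 90.2 CPM. Gss rose by 2.0 ± 0.35 (adjusted p = 0.0113). Genes overlap it on the other strand, and whether their reads entered its count was not tested.

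Noncoding transcripts that overlap neuronal genes were among the larger rises against WT-PBS. Gm16351, opposite Sorbs2, was at 50.8 and 102 CPM in WT-PBS, 124 and 129 CPM in 5×FAD-PBS, and 247 and 224 CPM in 5×FAD-Aβ3FTnAu (log2 1.70 ± 0.28, adjusted p = 0.0110 in edgeR). Gm26673, opposite the potassium channel gene Kcna6, was at 15.2 and 43.2, 33.4 and 38.7, and 97.9 and 85.0 CPM (1.81 ± 0.38, adjusted p = 0.0236). Gm15680 rose by 1.67 ± 0.23 (adjusted p = 0.00574). No label or file header states the strand setting of the counting, and whether reads of a gene on the other strand entered these counts was not tested. Among the largest falls in coding genes, C1qtnf4, a secreted C1q-related protein, was at 235 and 117, 93.5 and 181, and 39.5 and 46.4 CPM (−2.04 ± 0.34, adjusted p = 0.0130). Selenof, a selenoprotein of the endoplasmic reticulum, was at 86.3 and 55.3, 50.1 and 83.9, and 21.9 and 15.5 CPM (−1.94 ± 0.35, adjusted p = 0.0114). Both were lowest in the treated samples.

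Other lists held few or no passing genes in SST cells. In endoplasmic reticulum stress and folding, 0 of 12 genes passed in any comparison, while 10 lay lower in 5×FAD-Aβ3FTnAu than in 5×FAD-PBS, with a median of −0.95, and 11 lay lower than in WT-PBS, with a median of −0.85. None of 19 sodium and calcium channel genes, 23 synaptic adhesion genes, 13 cholesterol genes, 13 glycolysis genes, 8 heat shock genes or 6 activity-induced genes passed in any of the 3 comparisons in edgeR. Of 5 microglial markers, 0 passed, and their summed level was 130 and 231 CPM in WT-PBS, 227 and 338 CPM in 5×FAD-PBS, and 215 and 280 CPM in 5×FAD-Aβ3FTnAu.

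**Figure D4:**
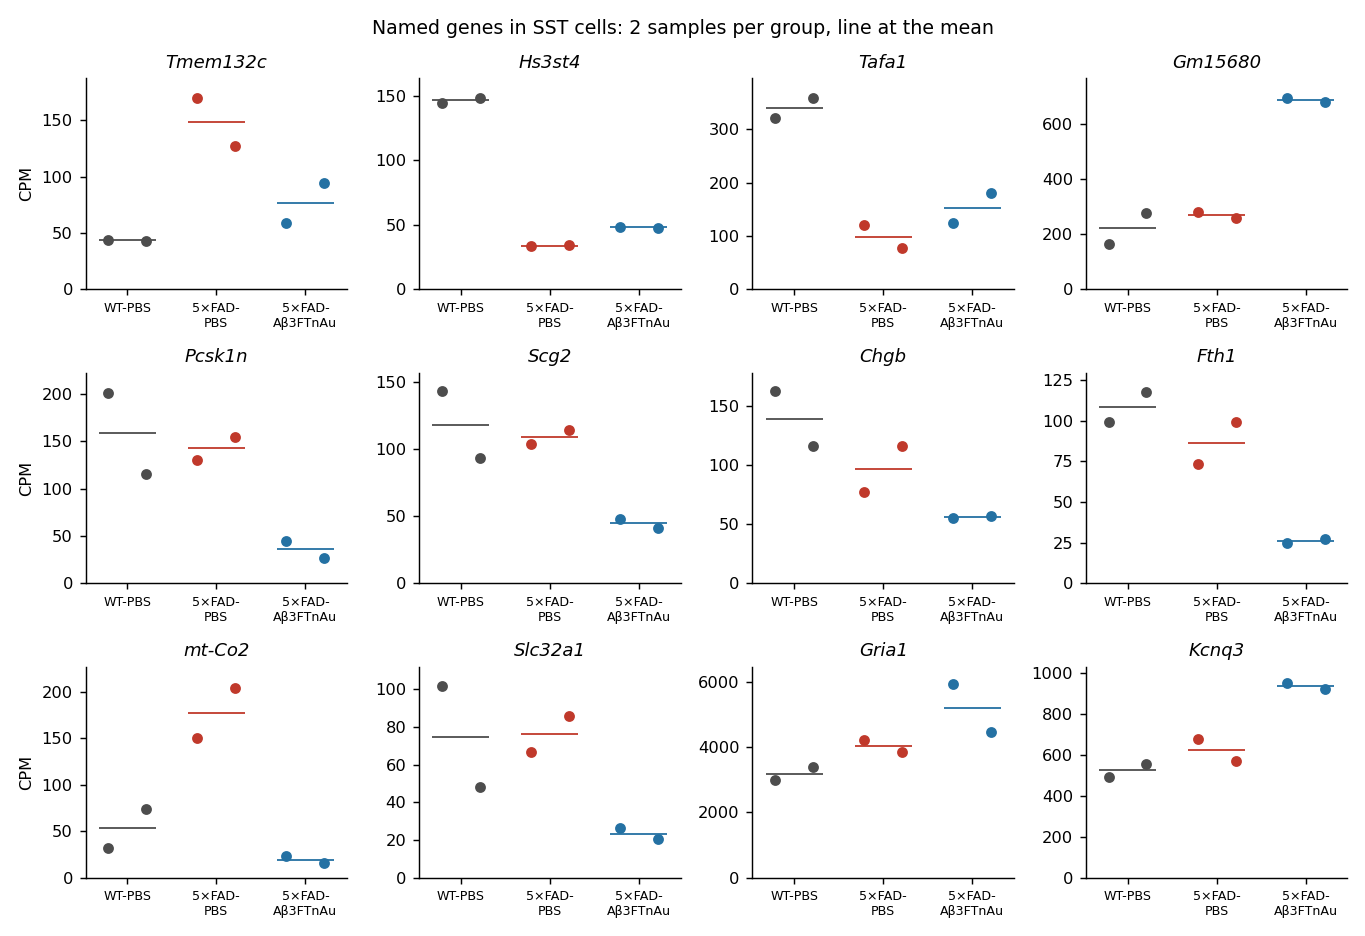
CPM of 12 genes in SST cells; each point is 1 sample and each line a group mean, with axes from 0. Hs3st4 and Tafa1 are low in both 5×FAD groups, Pcsk1n, Scg2, Chgb, Fth1 and Slc32a1 are lowest in both 5×FAD-Aβ3FTnAu samples, and Gm15680, Gria1 and Kcnq3 are highest there.

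Marker and identity genes outside the rule did not pass in most cases. Of 15 tested SST markers, Unc13c rose and Rbp4 fell in 5×FAD-Aβ3FTnAu against WT-PBS, and 0 passed in the other 2 comparisons. Of 12 tested lineage transcription factors and partners, 0 passed in any of the 3. Grin3a was at 456 and 490 CPM in WT-PBS, 538 and 577 CPM in 5×FAD-PBS, and 611 and 652 CPM in 5×FAD-Aβ3FTnAu, with adjusted p from 0.186 to 0.844 in edgeR. Kcnc2, the Kv3.2 channel, was at 1890 and 1937, 1914 and 2058, and 1787 and 1962 CPM. Satb1 was at 289 and 271, 267 and 260, and 227 and 331 CPM. Their log2 differences lay between −0.09 and 0.43 over the 3 comparisons. The 3 groups did not overlap in Grin3a, and nothing is read from that. Of all genes tested, 33.2% did not overlap between 5×FAD-PBS and WT-PBS. That share was 44.7% between 5×FAD-Aβ3FTnAu and 5×FAD-PBS, and 49.2% between 5×FAD-Aβ3FTnAu and WT-PBS. In Satb1 the treated samples overlapped both others.

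The calls of 5×FAD-Aβ3FTnAu against WT-PBS depended on the libraries of all 3 groups, and most were lost without either treated library. In edgeR the count was 1 without 5×FAD-Aβ3FTnAu 1 and 8 without 5×FAD-Aβ3FTnAu 2, 119 and 129 without the first and second 5×FAD-PBS library, and 1772 without WT-PBS 2. Hs3st4 is left out of what follows, as its values against WT-PBS in these fits are not given here. Of the other genes named above that passed against WT-PBS, the calls that held without 1 treated library were Pcsk1n without the first and Gm15680 and Slc4a4 without the second. The calls of Cck, Slc32a1, Apoe, Gria1, Gm26673, Ndufb9 and Ndufs1 were also lost without WT-PBS 1. Those of Cck, Gabrb1, Gria1, Gm26673, Ndufa4, Ndufb9 and Ndufs1 were lost without either 5×FAD-PBS library, and that of Cox8a without 5×FAD-PBS 1. Over the settings that left out no library, Pcsk1n, Fth1, C1qtnf4, Gm15680 and Gm16351 passed against WT-PBS in 13 of 13. Apoe, Cck, Unc13c and Ndufa4 passed in 6 of 13, and Ndufb9 in 5. SST cells with no mitochondrial UMI were 48.4% and 14.5% of those in WT-PBS and 48.4% and 53.7% in 5×FAD-Aβ3FTnAu. Fitted on those cells alone, 92 and 11 in WT-PBS and 46 and 51 in 5×FAD-Aβ3FTnAu, 98 of 4620 genes rose and 85 fell. Of the 277 genes of the main fit, 201 were tested there and 89 passed. On cells with a mitochondrial UMI alone, 61 of 6996 genes rose and 70 fell. There 250 of the 277 were tested and 114 passed.

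**Figure D5:**
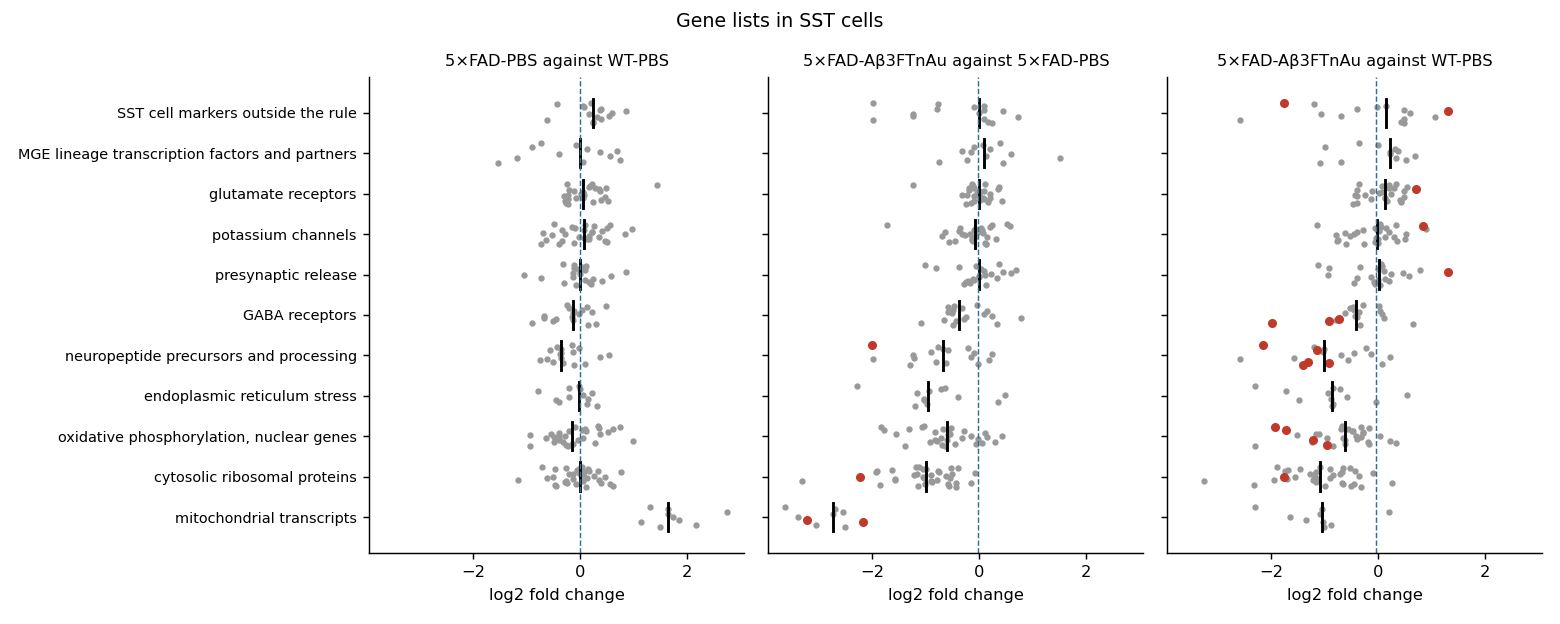
Log2 fold change of the tested genes of 11 lists in SST cells for the 3 comparisons; grey points are genes, red points those with an adjusted p under 0.05 in edgeR, black bars list medians, and the dashed line is the median of all genes. Mitochondrial transcripts shift up in 5×FAD-PBS against WT-PBS and down in 5×FAD-Aβ3FTnAu, and the ribosomal and peptide lists lie left of the dashed line in both comparisons with 5×FAD-Aβ3FTnAu.

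No gene separated SST from PV cells in its response. The class-by-group term of edgeR passed for 0 of 9868 genes in each of the 3 comparisons (0%), with 448, 442 and 432 genes at an unadjusted p under 0.05, and DESeq2 gave 0 in each. Without 1 library the counts reached 12, 10 and 9, and a missed threshold does not show that the classes responded alike. Fitted alone, PV cells gave 0, 23 and 421 passing genes of 9356 tested in the same order. Pcsk1n was at −2.0 in SST cells and −1.93 in PV cells in 5×FAD-Aβ3FTnAu against 5×FAD-PBS. Tmem132c was at 1.77 in SST cells and 0.20 in PV cells in 5×FAD-PBS against WT-PBS, and the difference did not pass (1.64 ± 0.33, adjusted p = 0.110). Slc4a4 lay nearer the threshold, at −2.32 in SST cells and −0.24 in PV cells in 5×FAD-Aβ3FTnAu against WT-PBS. Its difference did not pass either (−2.04 ± 0.40, adjusted p = 0.0590 in edgeR).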

How the data were processed

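Cells of 6 mouse samples were profiled with a 3' single-cell kit, per the labels. The authors deposited raw UMI counts per gene and barcode, and per the file headers the tool was Cell Ranger 7.1.0; the submitters' processing notes name mm10. Strand use and any removal of free RNA are not given in the sources used here. Barcodes were filtered and classed as described, the UMIs of each class were added up within each sample, and CPM were computed from these sums. Genes were tested with edgeR 4.0.16 (TMM, quasi-likelihood, Benjamini-Hochberg) over all genes passing its expression filter, with 1 fit over all 6 samples, checked on simulated data. DESeq2 1.42.0 and other filters, scalings, gates and left-out libraries were alternatives. No doublets were removed in the main analysis. Named genes were those with the largest changes past the threshold at a mean of at least 50 CPM, and members of the gene lists. The rule, the lists and these genes were chosen with earlier results of these data known. Annotation was GENCODE vM21 and the promoter came from RefSeq.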

Additional observations from a re-analysis of the deposited data

How the results depend on the processing

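The main counts in SST cells were 3 genes for 5×FAD-PBS against WT-PBS, 9 for 5×FAD-Aβ3FTnAu against 5×FAD-PBS and 277 for 5×FAD-Aβ3FTnAu against WT-PBS, and the cause of each shift that follows was not tested. The first became 0 without cells of 2 or more Slc17a7 UMIs, 13 with equal cells per sample, 30 with no filter on low counts and 1 in DESeq2. The second became 5 with a panel sum of at least 8, 3 without high doublet scores, 5 without Slc17a7 cells, 44 with equal cells, 2 with Sst left out of the panel and 170 with no filter. The third became 169 with a panel sum of at least 8, 183 in cells with no mitochondrial UMI, 131 in cells with one, 179 with equal cells, 88 with Sst left out, 769 with no filter and 72 in DESeq2. Without 1 library the 3 counts ranged from 0 to 487, 0 to 419 and 1 to 1772.

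For the share among GABA cells (log2), a panel sum of at least 8 gave −1.12 for 5×FAD-Aβ3FTnAu against 5×FAD-PBS and −1.26 against WT-PBS, and thinning gave −1.48 for the latter; all 3 passed the threshold. Without 1 library these 2 ranged from −0.35 to 0.27 and −0.67 to −0.46, and 5×FAD-PBS against WT-PBS from −0.84 to −0.23. For the share among kept cells, a panel sum of at least 8 and thinning gave −0.63 and −0.98 for 5×FAD-PBS against WT-PBS, and 0.0495 and 0.29 for 5×FAD-Aβ3FTnAu against 5×FAD-PBS. Without 1 library the 3 comparisons ranged from −1.30 to −0.73, 0.84 to 1.41 and −0.01 to 0.24. The SST and PV count of 1803 was 1158 in DESeq2 and 1521 to 1785 without 1 library, and the SST and CGE count of 3172 was 2589 to 3087. The class-by-group counts were 0 to 12, 0 to 10 and 0 to 9 without 1 library, and relative log expression in place of TMM gave 2 for 5×FAD-Aβ3FTnAu against WT-PBS.

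Same-numbered samples did not deviate together (correlations −0.09, −0.05 and 0.02 over 3453 genes), so the numbers were not taken as pairs. With the replicate block the 3 gene counts were 0, 1 and 82, and the share among GABA cells in 5×FAD-Aβ3FTnAu against WT-PBS was −0.60 (adjusted p = 0.0324 in edgeR). No result changed direction while called. The 27 SST cells of 5×FAD-PBS 1, with 299392 UMIs, limit the precision of both comparisons with that group. The replicates of WT-PBS differed more from each other than those of the other groups. Their chi-square per degree of freedom was 3.792 in WT-PBS, 1.725 in 5×FAD-PBS and 1.602 in 5×FAD-Aβ3FTnAu, over 11451, 8676 and 10759 genes. As 1 fit covered all 6 samples, the spread of WT-PBS entered every comparison. Its part in the gene counts, with or without a WT-PBS library, was not tested.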
